A study of Mus musculus with 6 samples.

Results

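The 9 Krüppel-like factor (KLF) genes Klf2, Klf3, Klf4, Klf6, Klf7, Klf9, Klf10, Klf11 and Klf13 were chosen by their symbols, as the rows of the count table whose Ensembl gene identifiers carry these names in the Gencode mouse annotation. They are 9 of the 54446 genes counted. RNA-seq had been performed on bone marrow-derived macrophages (BMDMs) of male BALB/c mice aged 6–8 weeks, without any genetic change. BMDMs had been grown for 7 days with 20% medium conditioned by L929 cells, a fibroblast line that secretes the macrophage growth factor M-CSF. The 6 conditions had 1 library each. M0 cells received no polarizing cytokine, M1 cells were given LPS (50 ng/mL) with IFN-γ (20 ng/mL) for 24 hours, and M2 cells were given IL4 (20 ng/mL) for the same time. Each state was sequenced as a control, which the labels describe as DMSO, and with regorafenib (1 µM, given 1 hour before polarization), a multikinase inhibitor. The sources do not say how many mice were behind a library or how long the M0 cells were exposed.

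KLF proteins are transcription factors that bind GC-rich and CACCC elements through zinc fingers at their carboxyl end, and they differ in the cofactors that the rest of the protein recruits. Klf2, Klf4, Klf6 and Klf7 belong to the members that bind acetyltransferases, Klf3 recruits the corepressor CtBP, and Klf9, Klf10, Klf11 and Klf13 recruit the corepressor Sin3a. In macrophages, Klf4 is known as a factor induced by IL4 through Stat6, Klf2 as a restraint on inflammatory genes, and Klf6 as a factor that favors inflammatory responses.

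The libraries held between 25359309 and 34898342 counts, and levels are given as CPM, the counts scaled to library size after correction with trimmed means (TMM). Intervals are exact 95% intervals of the counts and cover counting error only, since 1 library per condition gives no replicate check. All 8 macrophage markers were detected in each library, with summed levels of 21870–48730 CPM. The 6 genes that mark IFN-γ and LPS summed to 13940–19710 CPM in the M1 libraries and to at most 41.1 CPM elsewhere, and the 6 genes that mark IL4 summed to 649–1298 CPM in the M2 libraries and to at most 34.6 CPM elsewhere. Lymphocyte and erythroid markers summed to at most 0.107 and 0.232 CPM. Neutrophil markers summed to 80.7–155.5 CPM, nearly all of it Mpo, with Ly6g at 0 counts in every library, and dendritic cell markers summed to at most 2.502 CPM outside M1 and to 32.1–38.8 CPM in M1, mostly Ccr7. Endothelial markers summed to 10.2–38.3 CPM and fibroblast markers to 3.19–10.2 CPM.

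The promoters are shown because Creb1, a factor that binds the cAMP response element TGACGTCA and its TGACG core, and Stat6, which binds TTCNNNNGAA, are factors of interest for Klf4, the former because the study examined it at this promoter and the latter because IL4 activates it. RefSeq windows of 300 bases (250 before and 50 after the transcription start, GRCm38.p6) were found for 8 of the 9 genes, and Klf10 was not matched. The whole TGACGTCA element was in none of the 8 windows and in 1.79% of all 32851 windows. Its TGACG core was present, on either strand, in 5 of the 8 windows (Klf2, Klf3, Klf4, Klf9 and Klf13) and in 20.8% of all windows. TTCNNNNGAA was in 0 of the 8 windows and in 6.95% of all. The letters of a KLF site were common in general: CACCC stood in 5 of the 8 windows and in 57.5% of all, and the GC box GGGCGG in 7 of the 8 and in 35.7% of all. A match of these letters is a description and not a binding site. The following lines give the 250 bases upstream of Klf4 (chr4:55532476-55532725, minus strand) and the cores upstream of Klf2 (chr8:72318812-72318841, plus strand), Klf9 (chr19:23141164-23141200, plus strand) and Klf13 (chr7:63938951-63938987, minus strand). All 4 stretches lie upstream of the gene in Gencode as well, and the capitals mark TGACG or its reverse complement.
Klf4: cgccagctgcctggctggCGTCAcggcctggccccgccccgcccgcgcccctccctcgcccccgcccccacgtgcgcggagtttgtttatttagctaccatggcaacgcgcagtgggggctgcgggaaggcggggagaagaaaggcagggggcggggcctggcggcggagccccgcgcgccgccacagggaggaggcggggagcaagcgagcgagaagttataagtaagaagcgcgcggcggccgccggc
Klf2: ctggtttgtTGACGccgtcgccatagggac
Klf9: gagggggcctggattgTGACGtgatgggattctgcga
Klf13: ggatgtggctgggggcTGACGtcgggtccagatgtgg
In the longer Klf4 upstream sequence that the study used, of 2945 bases, the last 250 bases were identical to the RefSeq window. It held 2 copies of the TGACG core, at −269 to −265 and at −232 to −228 from the transcription start, no whole TGACGTCA and 1 copy of TTCNNNNGAA, at −1502 to −1493. The study reported that regorafenib lowered Creb1 binding particularly at a site much farther upstream, where this sequence held no TGACG core. The core farther from the start and the Stat6-type match are shown with 16 bases on either side, with the matched letters in capitals.
Klf4 core at −269: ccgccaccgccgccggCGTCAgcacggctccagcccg
Klf4 Stat6-type match: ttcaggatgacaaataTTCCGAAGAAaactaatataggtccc

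Per kilobase of exon (FPKM, from the scaled counts), Klf6 was the most abundant KLF transcript in each of the 6 libraries. The level of Klf6 was 83.1 FPKM in M0 control, 75.3 in M0 with regorafenib, 99.3 and 103.8 in M1, and 88.4 and 68.2 in M2. It made up between 34.5% (M2 control) and 68.9% (M1 with regorafenib) of the summed level of the 17 KLF genes examined. The gene next to it differed by state. Klf2 was next in M0 control at 29.6 FPKM, Klf13 was next in M0 with regorafenib at 25.1 FPKM and in both M1 libraries at 14.3 and 12.2 FPKM, and Klf4 was next in both M2 libraries at 60.2 and 27.7 FPKM. The summed KLF level was highest in M2 control, at 255.9 FPKM, and lay between 150.6 and 183.3 FPKM in the other 5 libraries. The share held by Klf4 was 9.92% in M0 control and 6.77% with regorafenib, 2.69% and 1.69% in M1, and 23.5% and 15.1% in M2. Of the 9 genes, Klf11 had the lowest level per length in all libraries except M2 with regorafenib, where Klf7 stood at 2.41 and Klf11 at 2.496 FPKM.

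**Figure D1:**
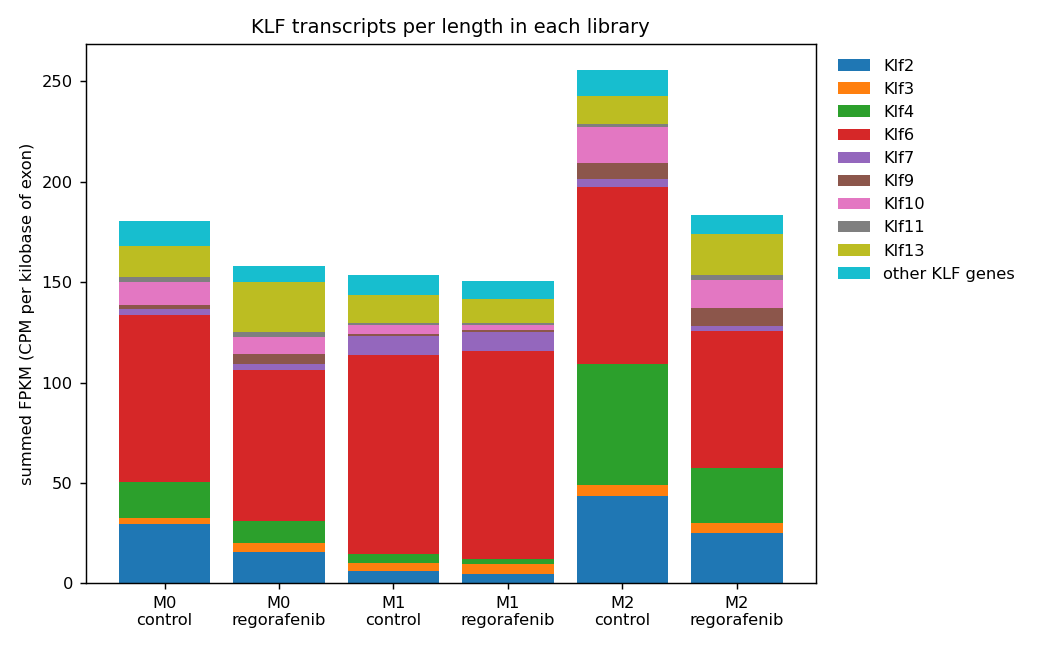
Stacked bars give the summed level of the KLF genes in each of the 6 libraries, in FPKM (scaled CPM per kilobase of exon), with 1 color per gene and the 8 KLF genes outside the set as the top segment. Klf6 forms the largest segment of each bar, and the Klf4 segment is largest in M2 control, at 60.2 FPKM.

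Among the genes that bind acetyltransferases, Klf4, known to take part in the IL4 response of macrophages and lying on chromosome 4 (55527143-55532466, GRCm38), differed most between conditions. Its counts were 1677 in M0 control, 1074 in M0 with regorafenib, 325 and 187 in M1, and 6702 and 2362 in M2. In CPM these were 54.6 and 32.6 in M0, 12.6 and 7.76 for M1, and 184 and 84.4 for M2, so that the library with regorafenib was the lower of the pair in each state and the highest library was 23.7 times the lowest. With regorafenib against control, its log2 ratio was −0.74 (95% interval −0.86 to −0.63) in M0, −0.70 (−0.96 to −0.43) in M1 and −1.12 (−1.19 to −1.05) in M2. The ratio in M2 was lower than that in M0 by more than counting error, with a difference of −0.38 (−0.51 to −0.25), while the ratios in M1 and M0 differed by 0.05 (−0.23 to 0.33). Klf4 with regorafenib in M2 remained above Klf4 in M0 control, at 84.4 against 54.6 CPM. In whole cultures, fewer cells of a type and less RNA per cell cannot be told apart. Klf4 and Klf2 are also known as genes of endothelial cells. Endothelial markers summed to 38.3 CPM in M0 control and 18.2 with regorafenib, 27.3 and 37.6 in M1, and 26.6 and 10.2 in M2, so that they were lower with regorafenib in M0 and M2 and higher in M1. Kdr gave the highest of these levels, and Pecam1 had at most 6 counts in M0, compared with 307 and 256 for M1 and 38 and 31 for M2. Cdh5 stayed at 22 or fewer and Tek at 8 or fewer in any library. Their part in the Klf4 and Klf2 ratios was not tested.

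Klf2, a paralog of Klf4 that restrains NF-κB target genes (chromosome 8, 72319033-72321656), stood at 1680 and 948 counts in M0, 290 and 218 for M1, and 2950 and 1308 for M2. As levels these were 54.7 and 28.8 CPM in M0, 11.2 and 9.05 for M1, and 80.8 and 46.8 for M2, again with the control above regorafenib in each pair. Its log2 ratio with regorafenib was −0.93 (−1.04 to −0.81) in M0, −0.31 (−0.57 to −0.05) in M1 and −0.79 (−0.88 to −0.69) in M2. The Klf2 ratio in M1 was nearer to 0 than that in M0, by 0.62 (0.34 to 0.89), and the difference between M2 and M0 included 0 (0.14, −0.01 to 0.29).

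Klf6 (chromosome 13, 5861482-5870394) varied least, with its highest library 1.52 times its lowest. It had 11206 and 10903 counts in M0, 11263 and 10982 for M1, and 14165 and 8373 for M2, or 364.8 and 330.8, 435.9 and 455.7, and 388 and 299.3 CPM. Both M1 libraries lay above the other 4 with TMM scaling, but with total counts the M1 to M0 ratio of the control arm turned from 0.26 to −0.18. With regorafenib the log2 ratio was −0.14 (−0.18 to −0.10) in M0, 0.06 (0.03 to 0.10) in M1 and −0.37 (−0.41 to −0.34) in M2. These are shifts of 1.30-fold at most, and their narrow intervals come from the high counts of this gene.

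Klf7, best known for its roles in neurons and fat cells (chromosome 1, 64029447-64122282), was the gene of the set with the highest M1 to M0 ratio in both arms. Its counts were 723 and 727 in M0, 2013 and 1850 for M1, and 1185 and 548 for M2. Levels were 23.5 and 22.1 CPM in M0, 77.9 and 76.8 for M1, and 32.5 and 19.6 for M2, and neither the pair in M0 nor the pair in M1 differed beyond counting error. Only in M2 did the interval leave 0, with a log2 ratio of −0.73 (−0.88 to −0.58), which lay below the M0 ratio by 0.63 (interval of the difference −0.84 to −0.43). The lincRNA Gm26649 shares 37.0% of the 100-base words of Klf7 from the opposite strand, and it had at most 1 count in a library.

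Klf3, the CtBP-recruiting member (chromosome 5, 64803388-64832901), showed the opposite direction in M0 and in M2. It had 1037 and 1768 counts in M0, 1256 and 1251 for M1, and 2161 and 1434 for M2. The M0 control library, at 33.8 CPM, stood below the other 5, which lay between 48.6 and 59.2 CPM. The regorafenib ratio (log2) was 0.67 (0.56 to 0.78) in M0, 0.09 (−0.02 to 0.21) in M1 and −0.21 (−0.30 to −0.11) in M2, and M2 differed from M0 by −0.88 (−1.02 to −0.73). Gm20033 shares 2.63% of the 100-base words of Klf3 from the opposite strand and had at most 6 counts.

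**Figure D2:**
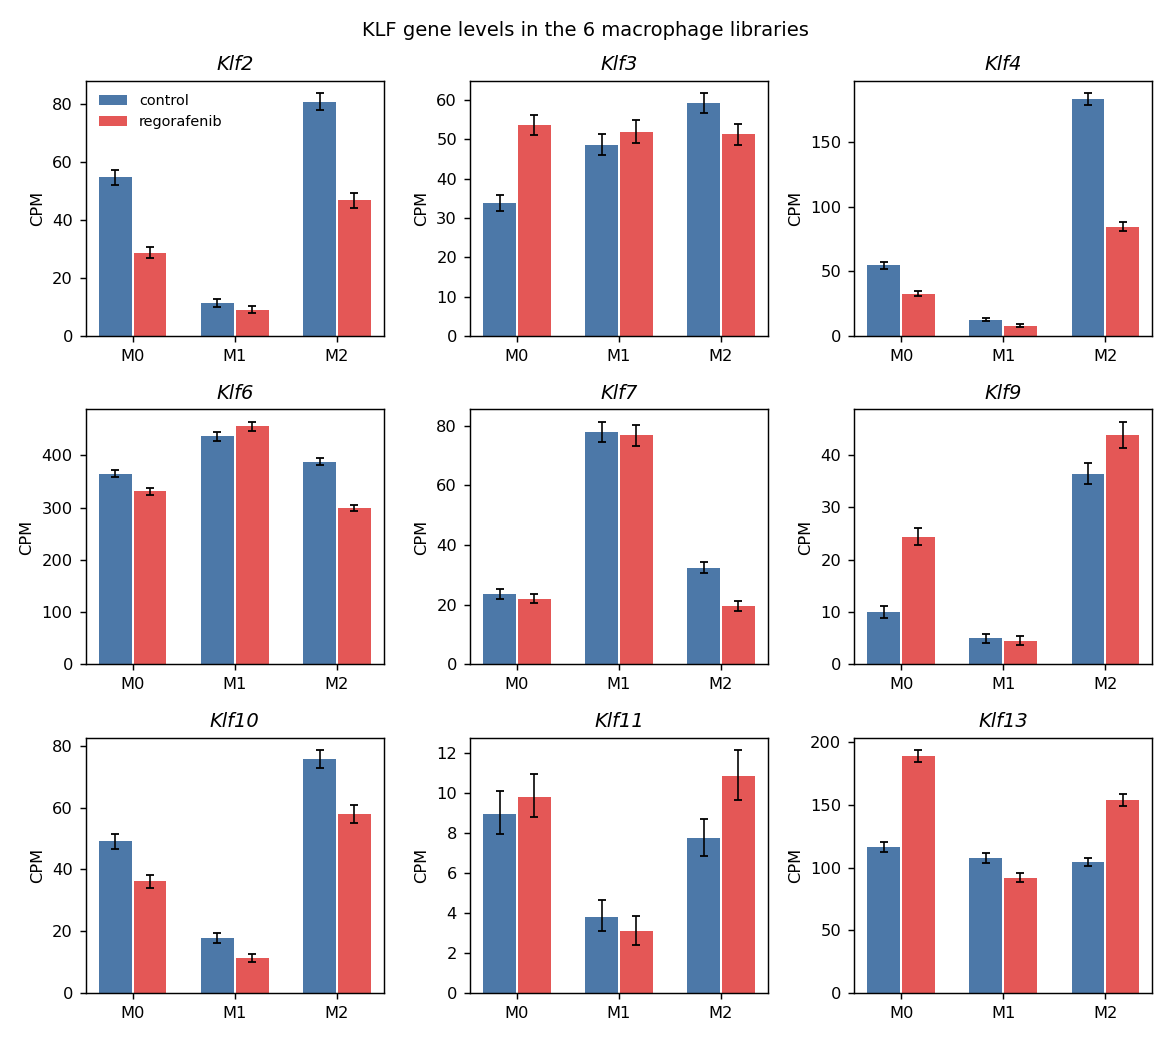
Bars give the scaled level in CPM of each of the 9 genes in the control (blue) and regorafenib (red) libraries of M0, M1 and M2, with 1 library per bar and lines for the exact 95% Poisson interval of the count. Klf2, Klf4 and Klf10 are low in M1, high in M2 and lower with regorafenib in each state, while Klf7 is highest in M1. Klf6 is highest in M1 as drawn, with TMM scaling, and lower in M1 than in M0 in the control arm with total counts.

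Of the Sin3a-recruiting members, Klf10 (chromosome 15, 38291463-38300706), an early response gene of TGF-β signaling, was lower with regorafenib in each state. It had 1508 and 1190 counts in M0, 458 and 269 for M1, and 2766 and 1619 for M2, or 49.1 and 36.1, 17.7 and 11.2, and 75.8 and 57.9 CPM. The log2 ratios were −0.44 (−0.55 to −0.33) in M0, −0.67 (−0.89 to −0.45) in M1 and −0.39 (−0.48 to −0.30) in M2. Differences of M1 and of M2 from M0 both included 0.

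Klf9 (chromosome 19, 23141226-23168134), a gene that glucocorticoid and thyroid hormone receptors are known to induce, was higher with regorafenib in M0 and M2. Its counts were 308 and 804 in M0, 128 and 110 for M1, and 1329 and 1226 for M2, corresponding to 10.03 and 24.4 CPM, 4.95 and 4.56 CPM, and 36.4 and 43.8 CPM. The pair in M1 did not differ beyond counting error (−0.12, −0.50 to 0.26). The log2 ratio was 1.28 (1.09 to 1.48) in M0 and 0.27 (0.15 to 0.38) in M2, a difference of −1.01 (−1.23 to −0.79) for M2 against M0.

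Klf13 (chromosome 7, 63886351-63938915), known as an activator of the chemokine gene Ccl5 in T cells, was also higher with regorafenib in M0 and M2 and lower in M1. It had 3568 and 6230 counts in M0, 2783 and 2216 for M1, and 3814 and 4300 for M2. The 3 control libraries were close to each other, at 116.2, 107.7 and 104.5 CPM, whereas the regorafenib libraries ranged from 92.0 CPM in M1 to 189 in M0, with 153.7 in M2. The log2 ratios were 0.70 (0.64 to 0.76) in M0, −0.23 (−0.31 to −0.15) in M1 and 0.56 (0.49 to 0.62) in M2. Mpo was also higher with regorafenib in M0 (155.4 against 80.7 CPM) and M2 (130.3 against 87.0 CPM), and stood at 85.6 against 83.0 CPM in M1. The 5 fibroblast markers summed to 10.2 against 3.19 CPM in M0, 6.68 against 8.86 in M1 and 5.76 against 3.56 in M2, so that they were higher with regorafenib in M0 and M2 and lower in M1. Their part in the Klf3, Klf9 and Klf13 ratios was not tested.

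Klf11 (chromosome 12, 24651274-24662789), like Klf10 a gene induced by TGF-β, had the fewest counts: 275 and 323 in M0, 98 and 74 for M1, and 282 and 303 for M2. Its levels of 8.95 and 9.80 CPM in M0, 3.79 and 3.07 for M1, and 7.72 and 10.8 for M2 placed both M1 libraries below the other 4. The interval of the ratio included 0 in M0 (0.13, −0.11 to 0.37) and in M1 (−0.30, −0.76 to 0.15). In M2 it was 0.49 (0.25 to 0.73). With so few counts, smaller differences were not detectable at this depth.

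Counted over the 9 genes, the 95% interval of the regorafenib ratio lay above 0 for 3 and below 0 for 4 in M0, above for 1 and below for 4 in M1, and above for 3 and below for 6 in M2. The share of all genes with an interval clear of 0 was not computed. Of all genes with 50 counts in either library, 49.4%, 47.2% and 45.8% had a ratio above 0 in M0, M1 and M2. A gene was counted in a comparison if either library held 50 counts, and all 9 did so throughout. Past 2-fold were 1 of 9 in M0 (Klf9, higher), against a background of 16.2% of the 11562 genes with enough counts. None of the 9 passed 2-fold in M1, where 2.15% of 10911 genes did, and 1 of 9 did so in M2 (Klf4, lower), where 7.12% of 11418 genes did. At a limit of 1.5-fold the counts were 5 of 9 in M0, 2 of 9 in M1 and 3 of 9 in M2, beside 34.3%, 7.11% and 19.7% of all genes. The median log2 ratio of the 9 was −0.09 in M0, −0.23 in M1 and −0.37 in M2, and that of all genes −0.01, −0.01 and −0.04.

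**Figure D3:**
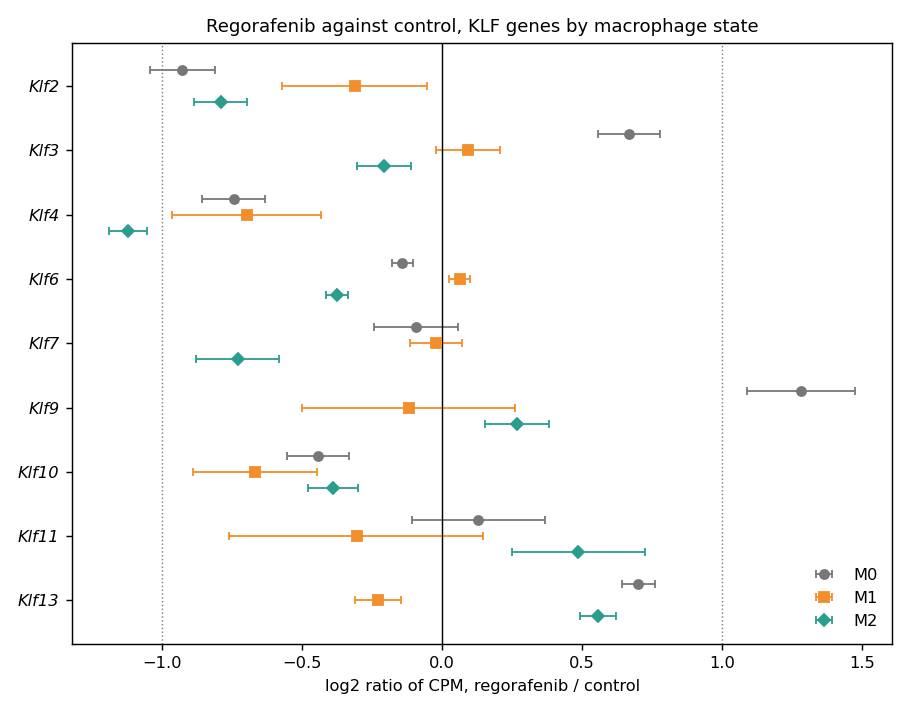
Points give the log2 ratio of CPM, regorafenib to control, of each of the 9 genes in M0 (grey circles), M1 (orange squares) and M2 (green diamonds), with 95% intervals from counting error and dotted lines at 2-fold. Klf2, Klf4 and Klf10 lie left of 0 in the 3 states, Klf9 in M0 lies at 1.28 and Klf4 in M2 at −1.12.

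Between states, the log2 ratios of the 9 genes spanned −2.28 to 1.86 in the control arm, compared with −1.12 to 1.28 for regorafenib within states. The M1 and M2 comparisons of an arm share its M0 library. No 24 hours of polarization are recorded for M0, so cytokine and time in culture cannot be told apart in these ratios. In the control arm, 6 of 9 genes passed 2-fold between M1 and M0, where 33.2% of 11680 genes did. Klf7 was higher, with a log2 ratio of 1.73 (1.60 to 1.85). The 5 lower ones were Klf2 at −2.28 (−2.47 to −2.10), Klf4 at −2.12 (−2.29 to −1.95), Klf10 at −1.47 (−1.62 to −1.32), Klf11 at −1.24 (−1.59 to −0.90) and Klf9 at −1.02 (−1.33 to −0.72). Klf9 did not reach 2-fold with DESeq2 size factors (−0.97), upper quartile scaling (−0.88) or 1 CPM added (−0.89). With regorafenib in both libraries, 7 of 9 passed 2-fold, beside 34.0% of 11760 genes. These were the same 6 in the same directions, with Klf9 at −2.42 (−2.72 to −2.13), and Klf13, at −1.04 (−1.11 to −0.97), which stood at −0.11 (−0.18 to −0.04) in the control arm. With DESeq2 size factors, Klf13 in the regorafenib arm did not reach 2-fold (−0.97). The sign of the Klf13 ratio in the control arm depended on the scaling. It was 0.03 with upper quartile scaling.

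Between M2 and M0 in the control arm, 2 of 9 genes passed 2-fold, beside 8.81% of 11448 genes. Klf9 was higher at 1.86 (1.68 to 2.04) and Klf4 at 1.75 (1.67 to 1.83). The intervals of Klf2, Klf3, Klf6, Klf7 and Klf10 also lay above 0, with log2 ratios of 0.56, 0.81, 0.09, 0.46 and 0.63, although that of Klf6 was −0.0012 when scaled by total counts. Klf13 was lower at −0.15 (−0.22 to −0.09), and the interval of Klf11 included 0. In the regorafenib arm 1 of 9 passed 2-fold, beside 5.60% of 11448 genes. This was Klf4 at 1.37 (1.27 to 1.48). Klf9 stood at 0.85 (0.72 to 0.98) there, with 24.4 CPM in the M0 library of that arm against 10.03 in the control arm. The Klf3 ratio was −0.07 (−0.17 to 0.04), compared with 0.81 (0.70 to 0.92) in the control arm. At 1.5-fold, 4 of 9 genes passed in the control arm (Klf3, Klf4, Klf9 and Klf10) and 4 of 9 in the regorafenib arm (Klf2, Klf4, Klf9 and Klf10), beside 18.2% and 14.6% of all genes, and in the M1 comparisons 6 and 7 of 9 passed it, beside 50.5% and 52.1% of all genes.

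**Figure D4:**
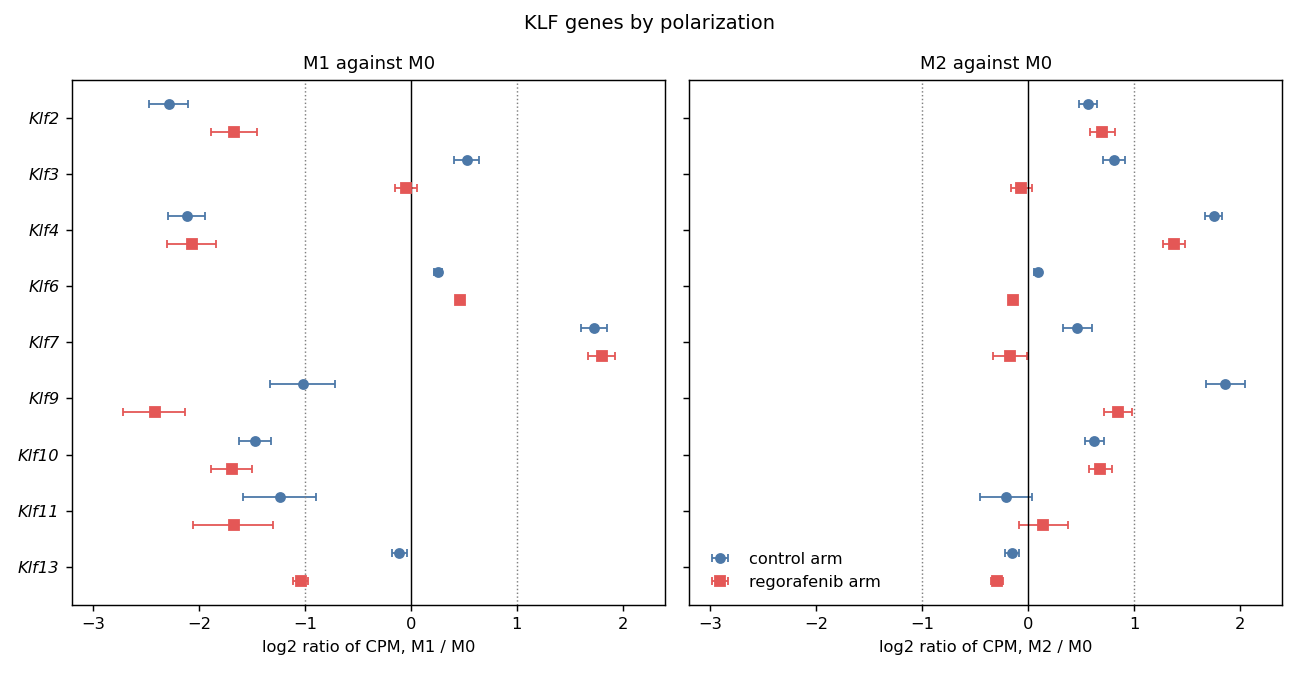
Points give the log2 ratio of CPM of M1 to M0 (left) and of M2 to M0 (right) for the 9 genes, in the control arm (blue circles) and the regorafenib arm (red squares), with 95% intervals from counting error and dotted lines at 2-fold. Klf2, Klf4, Klf9, Klf10 and Klf11 lie left of −1 in M1 in both arms, Klf7 lies right of 1, and in M2 Klf4 lies right of 1 in both arms.

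Set beside all genes with enough counts, Klf4 stood far to the low side of the regorafenib ratios in M1 and M2. In M2, 2.54% of genes had a lower ratio than Klf4, in M1 3.27% and in M0 14.1%. For Klf2 the shares were 5.72% in M2, 12.5% in M1 and 10.5% in M0, and for Klf10 they were 19.9%, 3.52% and 24.1%. Klf9 was at the high side in M0, where 95.9% of genes had a lower ratio. In the control arm, 98.7% of genes had a lower M2 to M0 ratio than Klf4 and 98.8% a lower one than Klf9, whereas the M1 to M0 ratios of Klf4 and Klf2, though larger in size, had 7.96% and 7.21% of genes below them. Genes are not replicates, and these shares describe the libraries only.

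**Figure D5:**
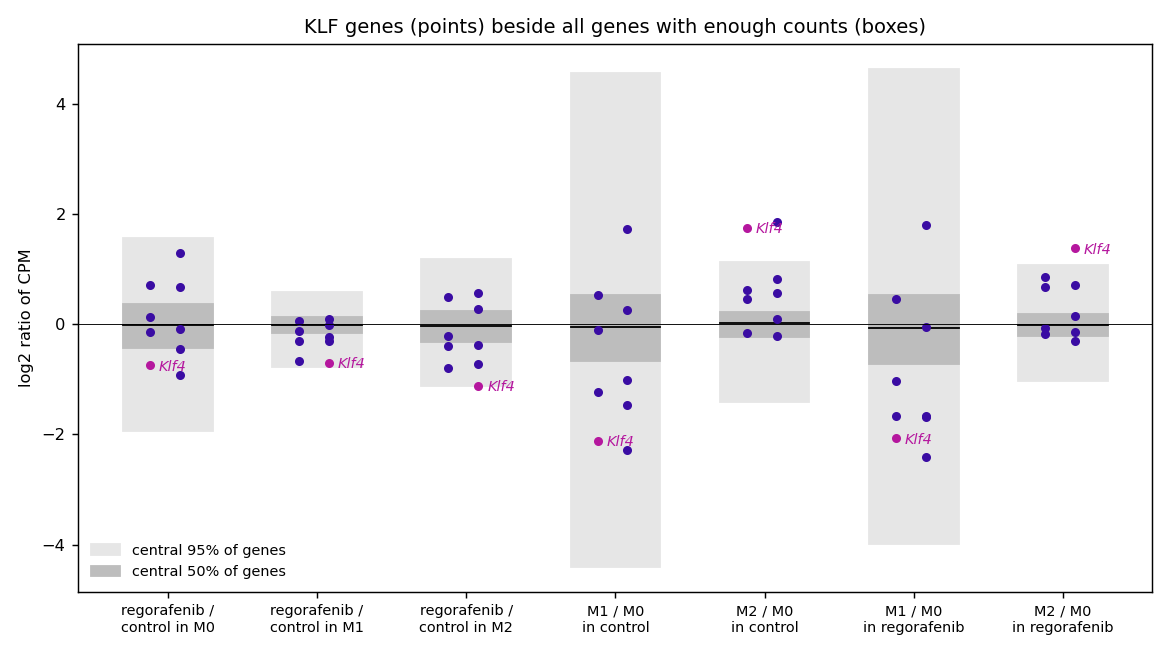
Boxes give the central 95% (light) and central 50% (dark) of the log2 ratios of all genes that reach 50 counts in either library, with a line at the median, and points give the 9 KLF genes in the 7 comparisons, with Klf4 named. The Klf4 point lies at −1.12 near the lower end of the light box for regorafenib in M2 and above the light boxes for M2 against M0.

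The 3 regorafenib libraries were also tested against the 3 controls by edgeR's quasi-likelihood method, blocking on state. The error in this fit is how far the states differ in their regorafenib response. The states were not tested against each other across the arms. After Benjamini-Hochberg adjustment, 0 of 13365 genes (0%) passed, with 1519 at an unadjusted p under 0.05, and DESeq2 called 299 of 12587. Klf4 had a log2 ratio of −0.84 and an adjusted p of 0.3295 by edgeR (unadjusted p 0.001353, lower with regorafenib in 3 of 3 states). DESeq2 gave Klf4 an adjusted p of 0.004215. The edgeR values were −0.67 with an adjusted p of 0.3472 for Klf2 and −0.48 with an adjusted p of 0.3913 for Klf10, each also lower in 3 of 3 states, and DESeq2 gave adjusted p values of 0.0844 and 0.2149. The other 6 genes had edgeR adjusted p values between 0.4774 and 0.7752.

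In the order of the 6 libraries by level, each neighboring pair differed beyond counting error for Klf2, Klf4, Klf6 and Klf10. For Klf4 this order was M2 control, M2 with regorafenib, M0 control, M0 with regorafenib, M1 control and M1 with regorafenib. Klf10 had the same order, and for Klf2, M0 control (54.7 CPM) came before M2 with regorafenib (46.8 CPM). For Klf3, the 4 libraries from M0 with regorafenib (53.6 CPM) down to M1 control (48.6 CPM) did not differ between neighbors. For Klf11, the 4 libraries of M0 and M2 did not differ between neighbors and neither did the M1 pair. For Klf13, M1 control and M2 control did not differ, for Klf7 the M1 pair and the M0 pair did not, and for Klf9 the M1 pair did not.

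The measure of likeness between genes was the root mean square difference of their centered log2 CPM over the 6 libraries, computed for the 11313 genes whose highest library held 100 counts or more. Within the set, Klf2 and Klf10 lay closest, at 0.28, followed by Klf3 and Klf6 at 0.33, Klf3 and Klf13 at 0.42, Klf10 and Klf11 at 0.48, and Klf2 and Klf4 at 0.49. Genes that vary little lie close by this measure whatever their pattern. The Pearson correlation was 0.03 for Klf3 and Klf6 and 0.09 for Klf3 and Klf13. For Klf2 and Klf10 it was 0.98, for Klf10 and Klf11 0.89, and for Klf2 and Klf4 0.98. The genes nearest to Klf4 included Cd300ld, a receptor gene of myeloid cells, at 0.25, Bcar3 at 0.26, Sp8 at 0.35 and Fyn, a Src-family kinase, at 0.36. Sp8 met the limit of 100 counts only in M2 control, where Klf4 was also highest. It had 6 and 4 counts in M1, so its likeness rests on few counts. Cd300ld had 233.2 and 115.4 CPM in M0, 45.9 and 31.5 for M1, and 466.8 and 258.6 for M2. Bcar3 had 53.2 and 22.4, 6.81 and 5.64, and 146.7 and 66.9 CPM. Both followed the order M2, M0, M1 with the lower value under regorafenib, as Klf4 did. The nearest gene was Serpinb6b for Klf2 (0.07), Kctd11 for Klf3 (0.08), BC048403 for Klf6 (0.04), Lrrc25 for Klf7 (0.10), Mettl27 for Klf9 (0.25), C3ar1 for Klf10 (0.11), Fuom for Klf11 (0.07) and Mknk2, a kinase of the translation factor eIF4E, for Klf13 (0.03).

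The remaining KLF genes were mostly silent. Of 8 others, Klf16 and Klf8 reached 50 counts, and Klf1, Klf5, Klf12, Klf14, Klf15 and Klf17 had at most 10 in a library. Neither Klf16 nor Klf8 passed 2-fold in any of the 7 comparisons, in which 2.15% to 34.0% of all genes did. Klf16, a Sin3a-type member, had 802 and 461 counts in M0, 511 and 419 for M1, and 953 and 483 for M2, with regorafenib ratios of −0.90 (−1.07 to −0.73), −0.19 (−0.38 to 0.0032) and −0.60 (−0.76 to −0.44). Klf8, which recruits CtBP as Klf3 does, had ratios of −0.22, 0.08 and −0.19. Among the 9 SP genes, relatives with the same zinc fingers, 4 or 5 reached 50 counts. Of those counted, Sp8 alone was past 2-fold. It was 1 of 5 with regorafenib in M2, beside 7.12% of all genes. For M2 against M0 in the control arm it was also 1 of 5, beside 8.81%. Sp8 reached 50 counts only in M2 control, so it was counted only in the comparisons that hold that library. Both calls therefore depend on the library that let it pass. It had 37 and 24 counts in M0, 6 and 4 for M1, and 100 and 29 for M2, a regorafenib ratio of −1.40 (−2.05 to −0.79) in M2 and an M2 to M0 ratio of 1.19 (0.63 to 1.77) in the control arm.

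Of 15 genes for KLF cofactors and for ubiquitin ligases that act on KLF proteins, 1 was past 2-fold higher with regorafenib in M0 and 0 in M1 and M2, with medians of 0.0013, −0.03 and 0.01. Of all genes, 6.69% were past 2-fold higher in M0, so that 1 of 15 is near the background. The one in M0 was Wwp1, a ubiquitin ligase known to act on Klf2 and Klf5, with 3101 and 10845 counts and a log2 ratio of 1.70 (1.65 to 1.76). In M2 it stood at 0.58 (0.53 to 0.63). Among the p38 kinase and Creb1 genes, 14 of 16 had enough counts in M0 and M2 and 12 in M1. Past 2-fold with regorafenib were 1 higher and 1 lower in M0 and the same 2 in M2, and 0 in M1, beside 16.2%, 7.12% and 2.15% of all genes in either direction in M0, M2 and M1. Mapkapk3, a kinase downstream of p38, was higher at 1.32 (1.19 to 1.44) in M0 and 1.07 (0.96 to 1.17) in M2. Mapk11, the p38β gene, was lower at −1.26 (−1.61 to −0.92) and −1.04 (−1.54 to −0.56), with at most 228 counts. These values are of transcripts, and kinase activity was not measured in these libraries.

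The 10 other regulators known upstream of Klf2 or Klf4 had enough counts in each library pair, and 0 of 10 passed 2-fold with regorafenib in M0, M1 or M2, where 16.2%, 2.15% and 7.12% of all genes did. Foxo1 was highest in M0 at 0.81 (0.62 to 0.998) and in M2 at 0.60 (0.42 to 0.78), and Srf was lowest in M2 at −0.41 (−0.54 to −0.27). Stat6, through which IL4 signals, was lowest in M0 at −0.32 (−0.36 to −0.28). Between M1 and M0 in the control arm, 2 of 10 were past 2-fold lower, namely Mef2c at −2.38 (−2.54 to −2.21) and Mef2a at −1.09 (−1.15 to −1.03), which encode targets of the kinase Erk5. Over all genes, 18.3% were past 2-fold lower in this comparison.

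Among 14 genes known to be regulated by KLF proteins, 1 was past 2-fold higher and 3 were lower with regorafenib in M2, of 13 with enough counts. Among the lower ones, the cell cycle genes Ccnd1 and Cdkn1a stood at −2.85 (−2.89 to −2.81) and −1.61 (−1.65 to −1.57). Retnla, an IL4-induced gene, was the higher one, with 941 and 3348 counts and a log2 ratio of 2.22 (2.11 to 2.32). The IL4-induced genes did not all rise. Of the 6 genes that mark IL4, 5 had enough counts in this pair, with 3 past 2-fold higher and 1 lower. Their sum was 1298 CPM in M2 control and 649 CPM in M2 with regorafenib. Thbd, the thrombomodulin gene that Klf2 and Klf4 are known to activate, had 1253 and 485 counts and a ratio of −0.99 (−1.14 to −0.83). The median of the 13 was −0.27, and 3.73% of all genes were past 2-fold higher and 3.39% lower in this comparison. In M0, 0 of 10 were past 2-fold higher and 2 lower (Ccnd1 and Cdkn1a, at −4.03 and −1.95), and in M1, 0 of 9 were higher and 2 lower. Over all genes, 6.69% were higher and 9.53% lower in M0, and 0.724% and 1.43% in M1.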

How the data were processed

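The authors deposited raw read counts per gene, made by trimming with cutadapt 2.4, mapping to GRCm38 with STAR 2.7.2a and counting with STAR on Gencode M19. Libraries were poly(A)-selected and stranded, and the strand column taken was not given in the sources used here. Gene names came from Gencode M21 (53229 of 54446 identifiers matched with their version, 1180 without it, and 37 had no name). The members and gene lists were chosen with earlier results of these data known. Counts were scaled with TMM (edgeR 4.0.16, R 4.3.3) over the 6 libraries, and levels per length used merged exon lengths. The log2 ratio of 2 libraries had a conditional exact binomial 95% interval (scipy 1.17.1), differences between ratios a normal interval of the counts, and counts of 0 were replaced by 0.5. A gene was counted past 2-fold if its higher library held at least 50 counts. Regorafenib was compared across states by edgeR's quasi-likelihood method, blocking on state and keeping genes by filterByExpr, at a Benjamini-Hochberg adjusted p of 0.05, with DESeq2 1.42.0 as an alternative. Genes named were the 9 members, list genes past 2-fold or at the ends of their list, and the genes nearest in pattern (5 for Klf4, 1 for each other member). Promoters were RefSeq windows on GRCm38.p6, searched on both strands. TGACG lies within TGACGTCA. Some genes that this rule covers are counted in their lists but not reported here by name.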

Additional observations from a re-analysis of the deposited data

Results flagged for a closer look

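Each of the following is a member whose ratio had an interval on opposite sides of 0 in 2 states or arms, with the same signs under each scaling tried. The intervals cover counting error, there is 1 library per condition, and the difference between conditions was not tested against replicates. For regorafenib against control, the log2 ratio of Klf3 in M0 exceeded that in M2 by 0.88 (0.67 against −0.21). The ratio of Klf13 in M0 exceeded that in M1 by 0.93 (0.70 against −0.23), and the M1 ratio lay at −0.79 relative to the M2 ratio (0.56). The ratio of Klf6 in M0 lay at −0.21 relative to M1 (−0.14 against 0.06), and its M1 ratio exceeded that in M2 by 0.44 (0.06 against −0.37). For M2 against M0, the Klf7 ratio in the control arm exceeded that in the regorafenib arm by 0.63 (0.46 against −0.17).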

How the results depend on the processing

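The counts of members past 2-fold in the 7 comparisons were the same, or within 1.5 times, with total counts, DESeq2 size factors, upper quartile scaling and 1 CPM added. The calls lost were those of Klf9 in M1 against M0 of the control arm (5 in place of 6 past 2-fold with DESeq2 size factors, upper quartile scaling and 1 CPM added) and of Klf13 in the regorafenib arm (6 in place of 7 with DESeq2 size factors). At 1.5-fold they became 5 (regorafenib in M0), 2 (regorafenib in M1), 3 (regorafenib in M2), 4 (M2 against M0, control arm) and 4 (M2 against M0, regorafenib arm), which the looser limit itself brings. Of the 63 member ratios, those inside their interval numbered 63 with 1 CPM added, 61 with DESeq2 size factors, 55 with upper quartile scaling and 37 with total counts. Signs differed in 5 cases, none of them past 2-fold: Klf6 in M1 against M0 (−0.18) and M2 against M0 (−0.0012) of the control arm and Klf7 with regorafenib in M1 (0.02) with total counts, Klf3 in M1 against M0 of the regorafenib arm (0.02) with DESeq2 size factors, and Klf13 in M1 against M0 of the control arm (0.03) with upper quartile scaling. Total counts moved the median of all genes by −0.44 (control arm) and −0.41 (regorafenib arm) for M1 against M0, and upper quartile scaling by 0.14 (control arm). The test across states called 0 genes by edgeR, 333 without the filter on low counts and 299 with DESeq2, and 0 to 386 when the pair of 1 state was left out. The 386 were without the M1 pair. The cause was not tested. The edgeR adjusted p of Klf4 ranged from 0.0233 (no filter) to 0.9998 (no block), with 0.055 without the M1 pair, 0.4027 without M0 and 0.7761 without M2. Klf11 in M1, at 74 to 98 counts, was the least precise.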
